A study of Torulaspora microellipsoides with 8 samples.

Results

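The regions described here are stretches of the Torulaspora microellipsoides transcriptome, away from scaffold ends, that align to an S. cerevisiae protein at low identity. The low identity is that of the region and not always of the whole transcript. The rule that chose them used the deposited annotation alone and no expression value. That annotation names transcripts assembled from the RNA libraries of the study, so it holds only what was expressed in them. A region was taken if its identity to the S. cerevisiae protein was under 35 percent and it was at least 300 bp long. It had to lie on a scaffold with at least 50 annotated regions. It also had to be at least 30000 bp from the scaffold start and from the largest region end on that scaffold. This gave 181 of 4464 regions (4.05%), on 10 scaffolds, which carry 158 different S. cerevisiae names and lie on 168 assembled transcripts. They are called diverged interior regions below, and the 3021 interior regions of at least 300 bp with an identity of 35 percent or more are the comparison regions.

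mRNA was sequenced from 3 white and 3 opaque log-phase cultures of T. microellipsoides, a budding yeast in which the cell types are told apart by colony appearance and cell morphology. White cells are the small budding form, and opaque cells are larger and of higher ploidy. All cultures were grown without any treatment in YEG medium at 23 °C, from an OD600 of 0.05 to 1.0, so the groups differ in the labels by cell type alone, and each culture was reported to be pure for its cell type. The 6 libraries held 24948791 to 50126043 counts, no defining marker gene was at hand to check the cell types against, and values are given as CPM (the counts of a region scaled to a common library size) after TMM normalization, a scaling by edgeR for the composition of each library. CPM is relative to all mRNA in a library, so fewer cells that carry an mRNA and less of it per cell cannot be told apart, nor can a change in the total mRNA of the larger opaque cells be seen.

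A protein keeps recognisable similarity to its relative in another yeast for as long as most substitutions are removed by selection. Catalytic cores and subunits of large complexes, such as those of the ribosome, usually stay similar, whereas disordered linkers, surface proteins, meiotic and centromere proteins and regulators often drift far. A low identity can also arise where a region is a distant member of a gene family whose closer counterpart lies elsewhere in the genome, so a name given here is the best match and not a statement that the function is shared. Roles are given for the S. cerevisiae proteins.

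The annotation divides the 181 regions into 3 kinds. A total of 68 regions (63 names) lay on the only transcript with their name. Another 55 regions (47 names) had a name that a separate transcript also carried. The region on that separate transcript can be a short fragment, as for NAT4 (83 bp) and YMR265C (74 bp). The last 58 regions (49 names) were a weakly matched stretch of a transcript with another region that matched the same S. cerevisiae protein at 35 percent or more. That other region can overlap the stretch, as it does for TPD3. Identity ran from 19.72 to 34.9 percent with a median of 30.78, and length from 302 to 4220 bp with a median of 836 bp, against 1310 bp for the comparison regions. A total of 23 diverged regions overlapped another region, and 16 names had several diverged regions (39 in all), so neighbouring values are not independent. It is not stated whether counting used the strand, so reads from an overlapping antisense transcript could not be told apart.

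The diverged regions were low in abundance, but most were covered over their whole length. Their median level was 31.6 CPM per kb, against 67.0 CPM per kb in the comparison regions. All 181 passed the filter on low counts, 177 were covered over their whole length in every library, and the lowest count of any of them in any library was 9. Together they held 1.04%, 1.07% and 1.10% of the counts of the 3 white libraries and 0.808%, 0.814% and 0.778% of the counts of the 3 opaque libraries. The white libraries were therefore all above the opaque libraries. Without RGT2 and YMR226C, the most abundant 2 regions per kb, the shares were 0.876% to 0.914% in white and 0.685% to 0.717% in opaque libraries.

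Most diverged regions that differed between the cell types were higher in white cells. Of the 181, 122 (67.4%) were called at a Benjamini-Hochberg adjusted p under 0.05 in the edgeR test, where 74.2% of all 4404 tested regions were called. A total of 94 (51.9%) were higher in white cells, against 37.6% of all tested regions, and 28 (15.5%) were higher in opaque cells, against 36.6%. The median log2 fold change (opaque minus white throughout) of the diverged regions was -0.26, that of all tested regions -0.02 and that of the comparison regions 0.04. With 1 region kept per transcript, chosen as an alternative after the data were seen, 27 of 168 were higher in opaque and 87 in white cells. Large changes were not more common than elsewhere, since 14 diverged regions (7.73%) changed at least 4-fold against 11.2% of all tested regions. Of these, 5 were higher in opaque cells (5.93% of all tested regions were) and 9 in white cells (5.25%). In 132 regions (72.9%) every library of 1 cell type was above every library of the other, against 77.8% of all tested regions. These shares are descriptions, and no test was made of the set against other regions.

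The share higher in opaque cells was larger in each higher band of identity, whereas the share higher in white cells did not fall in order below 35 percent. Among the 21 regions under 25 percent identity, 57.1% were higher in white and 4.76% in opaque cells, and the median change was -0.41 on the log2 scale. Between 25 and 30 percent (58 regions) 29 regions were higher in white and 9 in opaque cells, and between 30 and 35 percent (102 regions) the shares were 52.0% and 17.6%. Above the limit, regions of 35 to 50 percent were higher in white cells in 42.7% and in opaque cells in 32.7% of cases, those of 50 to 65 percent in 39.3% and 38.8%, and those of 65 to 80 percent in 34.2% and 45.8%. In the most similar regions, of 80 percent or more, the order was turned, with 28.0% higher in white and 59.1% higher in opaque cells and a median of 0.44. Ribosomal protein and ribosome assembly names, of which the comparison set held 178 regions with 177 higher in opaque cells, are part of that upper end. Without them the share higher in opaque cells was still 51.0% at 80 percent or more, 32.1% at 35 to 50 percent and 1 of 20 regions under 25 percent.

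**Figure D1:**
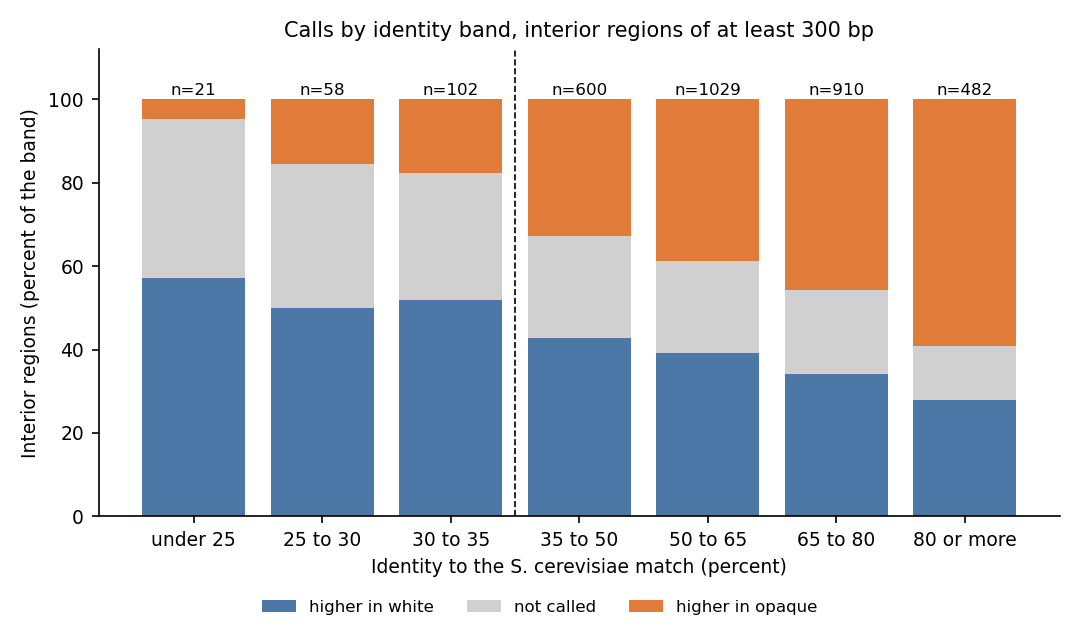
Share of interior regions of at least 300 bp in each band of identity to S. cerevisiae (percent of the band, on the vertical axis) that were higher in white cells (blue), higher in opaque cells (orange) or not called (grey). The dashed line marks 35 percent, with the 181 diverged regions to its left, and the orange share grows from 4.76% under 25 percent to 59.1% at 80 percent or more.

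The difference in direction was also seen within bins of abundance. The comparison regions were sorted into 5 bins of mean CPM per kb cut at the quintiles of the diverged regions and weighted by the number of diverged regions in each. The lowest and highest bins were open, so abundance was matched only roughly there. Comparison regions ran from 2.29 to 35977 CPM per kb, and diverged regions from 4.67 to 954 CPM per kb. In the highest bin the median was 157 CPM per kb in comparison and 117 CPM per kb in diverged regions. With this weighting 75.9% of comparison regions were called, 39.4% were higher in white and 36.5% in opaque cells, against 67.4%, 51.9% and 15.5% of diverged regions. Changes of at least 4-fold were then about as frequent, at 8.22% and 7.73%. Without the ribosome names, an alternative added after the data were seen, the comparison shares were 40.8% higher in white and 34.3% higher in opaque cells. The gap was seen in each bin for opaque cells, where the diverged share was 2.70% against 20.5% in the lowest bin and 19.4% against 48.7% in the highest. For white cells it was smallest in the middle bin, at 41.7% against 40.1%.

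**Figure D2:**
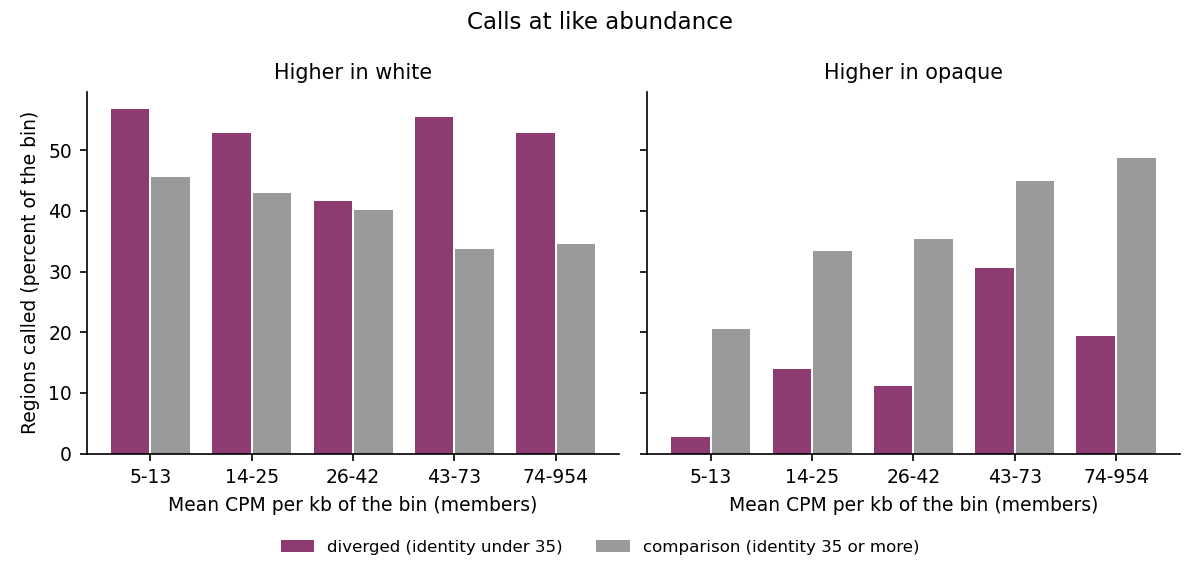
Share of diverged (purple) and comparison regions (grey) called higher in white cells (left) and in opaque cells (right), in percent of the bin, for 5 bins of mean CPM per kb. The lowest and highest bins also hold comparison regions beyond the range of the diverged regions. The diverged share is above the comparison share in all 5 bins on the left, by the least in the middle bin (41.7% against 40.1%), and below it in all 5 bins on the right.

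The 3 kinds of diverged region leaned to white cells to different degrees. Of the 58 weakly matched stretches, 39 (67.2%) were higher in white and 4 (6.90%) in opaque cells (median log2 fold change -0.40). Of all tested regions, 37.6% were higher in white and 36.6% in opaque cells. The better matched parts of the same transcripts leaned the same way. In 39 pairs on the same transcript, 23 diverged regions and 21 better matches were higher in white cells. Of the 68 regions on the only transcript of their name, 32 were higher in white and 14 in opaque cells (median -0.20). Of the 55 whose name was shared with another transcript, 23 were higher in white and 10 in opaque cells, with a median of -0.19. This kind held 8 of the 14 regions changed at least 4-fold, with NAT4 and YMR265C among them. These are counts of regions and not of transcripts. The stretches include 5 NUM1 fragments of 1 transcript, all higher in white cells. The regions on the only transcript of their name include SRM1 fragments of 1 transcript that were not called. No count per transcript was made for each kind, and the differences between kinds were not tested.

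**Figure D3:**
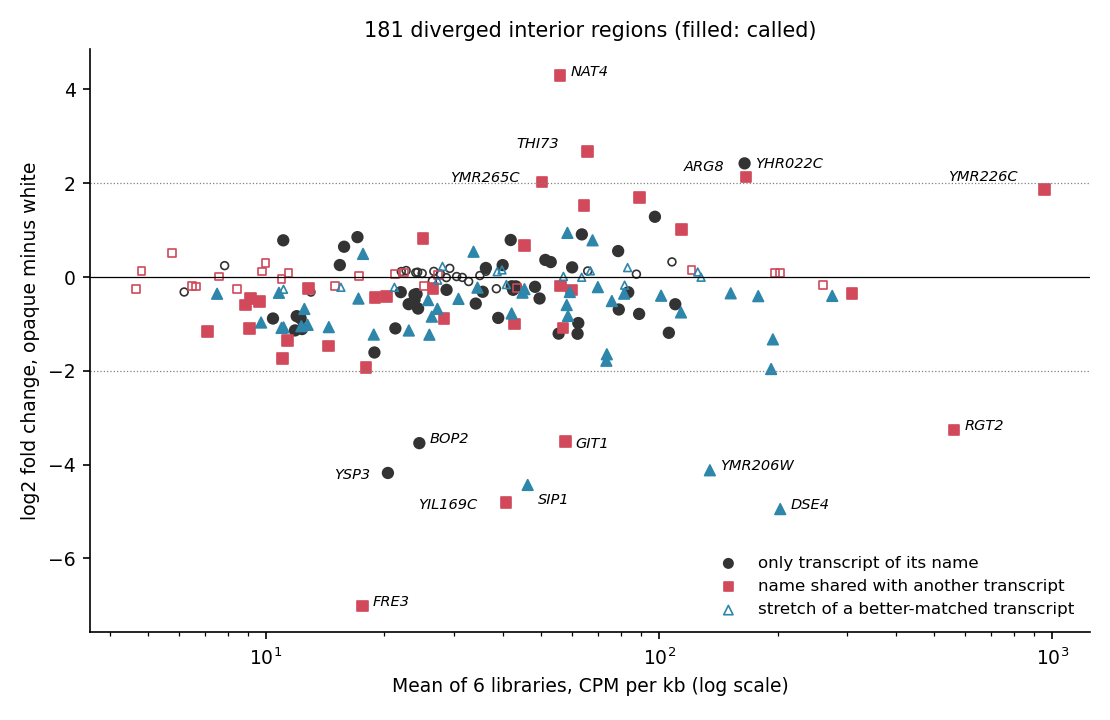
log2 fold change (opaque minus white) of the 181 diverged regions against their mean level in the 6 libraries in CPM per kb (log axis), with filled symbols for regions called in edgeR and a symbol for each kind. Dotted lines mark a 4-fold change, and the named points include the 14 regions past it, from FRE3 at -7.01 to NAT4 at 4.29.

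The largest change was in FRE3, named for a plasma membrane reductase of iron bound to siderophores, on scaffold 3 at 30163 to 32268 (29.24% identity, coordinates in the CLIB830T assembly). It was at 77.4, 69.3 and 73.9 CPM in the 3 white libraries and at 0.588, 0.373 and 0.724 CPM in the 3 opaque libraries. All white libraries were far above all opaque libraries, and the log2 fold change was -7.01 ± 0.14 (SE, edgeR adjusted p = 2.62e-11). The opaque values rest on 9 to 28 counts, and in the least covered library a fraction of 0.305 of the region was covered. FRE3 lies close to the edge of the interior, and its neighbours on other transcripts, PHO5 (58.18% identity, an acid phosphatase) and FAR8 (29.63%), had log2 fold changes of -7.59 and -4.17.

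Other large losses in opaque cells were in regions named for transporters and nutrient sensing. RGT2, named for a sensor of high external glucose, lay on scaffold 2 at 1126765 to 1128198 (33.53% identity) and was the second most abundant diverged region per kb. It was at 1318, 1602 and 1461 CPM in white and at 137, 169 and 152 CPM in opaque libraries, which did not overlap. Its log2 fold change was -3.26 ± 0.10 (SE, edgeR adjusted p = 2.41e-10). GIT1, named for a permease of glycerophosphoinositol, lay on scaffold 2 at 782668 to 784191 (29.68% identity), with 141, 189 and 154 CPM in white and 15.9, 15.2 and 11.3 CPM in opaque libraries. The groups were again apart, by -3.50 ± 0.15 on the log2 scale (SE, edgeR adjusted p = 5.11e-08). SIP1, named for a beta subunit of the Snf1 kinase that acts when glucose is scarce, lay on scaffold 3 at 349865 to 350701. This stretch of 34.11% identity was at 63.9, 79.5 and 78.6 CPM in white and at 3.55, 3.64 and 3.03 CPM in opaque libraries. Its log2 fold change was -4.43 ± 0.12 (SE, edgeR adjusted p = 1.23e-10), with no overlap between the groups. The better matched stretch of the same transcript (47.54% identity) changed less, by -2.76. The ratio of the SIP1 stretches changed by -1.66 ± 0.10 (SE, limma adjusted p = 3.82e-06).

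Regions named for wall proteins also fell in opaque cells. DSE4, named for a glucanase that helps the daughter cell separate from its mother, lay on scaffold 2 at 1497042 to 1497734 (29.23% identity). It was at 256, 266 and 296 CPM in white and at 8.06, 10.8 and 7.84 CPM in opaque libraries, a log2 fold change of -4.95 ± 0.12 (SE, edgeR adjusted p = 1.25e-10). The better matched stretch of the same transcript (75.11% identity) moved by nearly the same amount, -5.07, so both stretches differed alike. YIL169C, named for a cell surface protein, had 2 diverged regions. That on scaffold 8 at 478263 to 479069 (32.14% identity) was at 61.4, 65.5 and 63.2 CPM in white and at 1.62, 3.69 and 1.79 CPM in opaque libraries, a log2 fold change of -4.81 ± 0.23 (SE, edgeR adjusted p = 1.92e-07). That on scaffold 2 at 48741 to 49547 (34.41% identity) was at 27.4, 18.8 and 22.6 CPM in white and at 6.32, 6.9997 and 4.69 CPM in opaque libraries, a log2 fold change of -1.92 ± 0.17. The libraries of the cell types were apart in both, and a better match of the name on scaffold 3 (39.72% identity) was at 804 to 926 CPM in white and at 0 to 1.57 CPM in opaque libraries.

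The remaining 3 regions at least 4-fold higher in white cells were named for proteins of little known function. YSP3, named for a putative serine protease, lay on scaffold 6 at 155390 to 156271 and had no other transcript of its name. It was at 30.5, 37.1 and 34.8 CPM in white and at 2.01, 2.24 and 1.32 CPM in opaque libraries, a log2 fold change of -4.18 ± 0.16 (SE, edgeR adjusted p = 1.04e-09). YMR206W, on scaffold 2 at 179240 to 179845, was at 137, 170 and 156 CPM in white and at 11.9, 6.63 and 7.12 CPM in opaque libraries, with a log2 fold change of -4.12 ± 0.22 (SE, edgeR adjusted p = 1.29e-06). BOP2, on scaffold 8 at 552290 to 553372, was at 56.1, 37.1 and 53.1 CPM in white and at 3.13, 4.10 and 5.75 CPM in opaque libraries, with a log2 fold change of -3.54 ± 0.24 (SE, edgeR adjusted p = 2.67e-06). In all 3 the groups were apart, which was a condition for naming regions changed at least 4-fold. Most of these 9 regions did not share their change with their neighbours, FRE3 and DSE4 being the exceptions, the latter through CHS3 (-3.78, at a mean of 0.482 CPM in white libraries). The regions on either side of SIP1 (SKY1 and GIS4) had log2 fold changes of -0.42 and -0.38, those beside GIT1 (DYN2 and ERG6) -0.42 and 0.16, and those beside BOP2 (PDR8 and GET4) 1.01 and 0.64.

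Of the 5 regions at least 4-fold higher in opaque cells, NAT4, named for an acetyltransferase of histone N-termini, changed most. It lay on scaffold 3 at 523521 to 524156 (32.43% identity) and was at 2.91, 4.69 and 2.73 CPM in white and at 67.9, 73.1 and 62.0 CPM in opaque libraries. The groups were far apart, with a log2 fold change of 4.29 ± 0.18 (SE, edgeR adjusted p = 1.79e-08). THI73, named for a putative membrane transporter, lay on scaffold 9 at 474751 to 476370 (30.78% identity), with 27.5, 30.3 and 28.8 CPM in white and 176, 208 and 167 CPM in opaque libraries. The log2 fold change was 2.67 ± 0.09 (SE, edgeR adjusted p = 4.33e-10). Of the comparison regions of the name, that on scaffold 1 (75.14% identity) also rose, by 1.67. That on scaffold 8 (45.56% identity) changed by -0.38. The ratio to the match on scaffold 1 changed by 0.997 ± 0.16 (SE, limma adjusted p = 1.22e-03). The diverged THI73 region stands next to another diverged region, STL1, which went the other way (-1.73).

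YHR022C, an uncharacterised name on scaffold 1 at 1043840 to 1044511 (34.16% identity), had no second transcript. It was at 36.3, 31.6 and 36.4 CPM in white and at 165, 201 and 194 CPM in opaque libraries, a log2 fold change of 2.42 ± 0.09 (SE, edgeR adjusted p = 1.07e-09). YMR265C, also uncharacterised, lay on scaffold 3 at 182382 to 183632 (34.3% identity). It was at 24.3, 25.5 and 24.7 CPM in white and at 99.2, 104 and 100.1 CPM in opaque libraries, a log2 fold change of 2.02 ± 0.06 (SE, edgeR adjusted p = 2.19e-10). Neither group overlapped the other in these regions. YMR265C was below 4-fold with upper-quartile (1.91) and total-count scaling (1.87).

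ARG8, named for the mitochondrial aminotransferase of ornithine synthesis, had 2 diverged regions side by side on scaffold 1, on separate transcripts. The first, at 709191 to 710279 (27.69% identity), was at 63.1, 73.6 and 64.7 CPM in white and at 279, 320 and 285 CPM in opaque libraries. Its log2 fold change was 2.13 ± 0.08 (SE, edgeR adjusted p = 1.23e-09). It was below 4-fold with total-count scaling (1.98). The second, at 711365 to 712459 (28.46% identity), averaged 36.4 ± 1.97 CPM in white and 104 ± 8.55 CPM in opaque libraries (SD, n = 3), a log2 fold change of 1.52. The close match to ARG8 on scaffold 9 (76.83% identity) changed by 0.46, and both ratios to it changed (1.67 ± 0.12 and 1.06 ± 0.12, SE, limma adjusted p = 8.31e-06 and 1.48e-04).

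**Figure D4:**
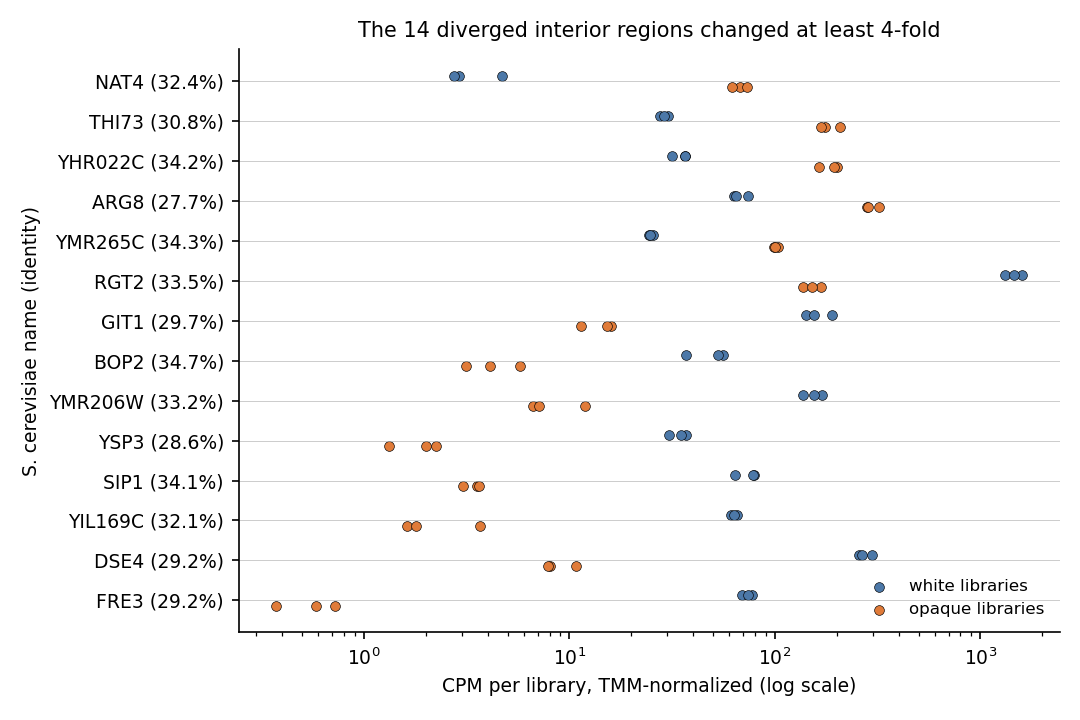
CPM of each of the 3 white (blue) and 3 opaque libraries (orange), on a log axis, for the 14 diverged regions changed at least 4-fold, ordered by fold change, with the identity of each in percent. The cell types do not overlap in any of the 14, but this was also a condition for naming them and is no separate support. The widest gap is that of FRE3, at 69.3 to 77.4 CPM in white and 0.373 to 0.724 CPM in opaque libraries.

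The most abundant diverged region per kb was YMR226C, named for a short-chain dehydrogenase, on scaffold 1 at 869837 to 870406 (30.15% identity), with a mean of 954 CPM per kb. It was at 201, 299 and 201 CPM in white and at 870, 854 and 834 CPM in opaque libraries. The opaque libraries were all higher, by 1.87 ± 0.15 on the log2 scale (SE, edgeR adjusted p = 5.46e-06). Next to RGT2 and to NAN1, the most abundant were COQ3 and TPD3, with smaller changes. COQ3, named for a methyltransferase of ubiquinone synthesis, had a log2 fold change of -0.35 (edgeR adjusted p = 1.28e-03). TPD3, named for the scaffold subunit of protein phosphatase 2A, had -0.40 (edgeR adjusted p = 9.93e-05). This region lies wholly within the well matched part of its own transcript (79.9% identity), so the 2 share their reads there.

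Where a diverged region and a better match shared a name, the change in their ratio was tested with limma over 93 pairs, and 37 ratios changed (39.8%). On the same transcript 6 of 39 ratios changed, and on separate transcripts 31 of 54. In 10 of these 31 pairs the ratio changed by at least 2 on the log2 scale, and in 7 the region and its better match were called in opposite directions. Separate assembled transcripts can be neighbours on 1 scaffold, as for the 5 NUM1 fragments and their better match on scaffold 8 at 88117 to 88584. Whether such pairs are parts of 1 gene was not tested. Pairs that share a better match are not independent.

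The smallest adjusted p of the ratio test was shared by FRE3, RGT2 and NAN1 (3.63e-07, limma). For FRE3 the better match was itself a diverged region, on scaffold 5 at 265679 to 267511 (30.42% identity). It was at 19.3, 20.8 and 21.2 CPM in white and at 22.1, 19.8 and 17.1 CPM in opaque libraries, which overlap. The ratio of the 2 regions changed by -6.87 ± 0.25 (SE) on the log2 scale. For RGT2 the better match on scaffold 4 (50.32% identity) was far lower, at 17.1, 16.5 and 16.2 CPM in white and 18.5, 18.2 and 19.8 CPM in opaque libraries. It was not called (log2 fold change 0.18), and the ratio changed by -3.44 ± 0.14 (SE). The diverged NAN1 region, on scaffold 8 at 720965 to 721279 (24.39% identity), stood in the reverse position. NAN1 is a subunit of the particle that processes early ribosomal RNA, and the diverged region was at 92.2, 80.6 and 87.3 CPM in white and at 71.2, 80.8 and 79.4 CPM in opaque libraries (log2 fold change -0.17, edgeR adjusted p = 0.0584). Its better match on scaffold 2 (62.24% identity) averaged 33.9 ± 6.28 CPM in white and 270.1 ± 17.7 CPM in opaque libraries (SD, n = 3). The ratio changed by -3.18 ± 0.12 (SE).

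HRR25 had the smallest adjusted p of the ratio test among pairs on 1 transcript. HRR25 is a casein kinase. A diverged region of that name, on scaffold 1 at 1369313 to 1369960 (24.89% identity), was at 188, 214 and 192 CPM in white and at 49.6, 50.1 and 53.2 CPM in opaque libraries. The well matched stretch of the same transcript (82.93% identity) was at 169, 184 and 172 CPM in white and at 177, 177 and 181 CPM in opaque libraries. The ratio changed by -1.98 ± 0.09 (SE, limma adjusted p = 1.07e-06), so these 2 stretches of 1 assembled transcript did not move together. The well matched stretch lay apart, at 1370743 to 1371990. Whether both belong to 1 gene, or to neighbouring genes joined in the assembly, was not tested. For STL1, named for a glycerol transporter, both regions of the pair were higher in white cells. The diverged region on scaffold 9 at 472776 to 474113 (33.62% identity) was at 18.1, 24.8 and 24.9 CPM in white and at 7.07, 7.58 and 5.71 CPM in opaque libraries. Its better match on scaffold 2 (82.75% identity) fell further, from 176, 248 and 275 CPM to 7.85, 6.05 and 7.71 CPM, and the ratio changed by 3.27 ± 0.19 (SE, limma adjusted p = 3.6e-06).

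Opposite directions were seen in YMR226C, whose better match (76.78% identity) had a log2 fold change of -0.87 where the diverged region had 1.87. VMA1, named for the catalytic subunit of the vacuolar proton pump, likewise had -0.76 in the better match and 0.82 in the diverged region. LYS14, an activator of lysine synthesis genes, had 0.70 in the better match and -1.004 in the diverged region. These 3 were chosen for display after their values were seen, except that YMR226C and LYS14 were also named by rule.

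**Figure D5:**
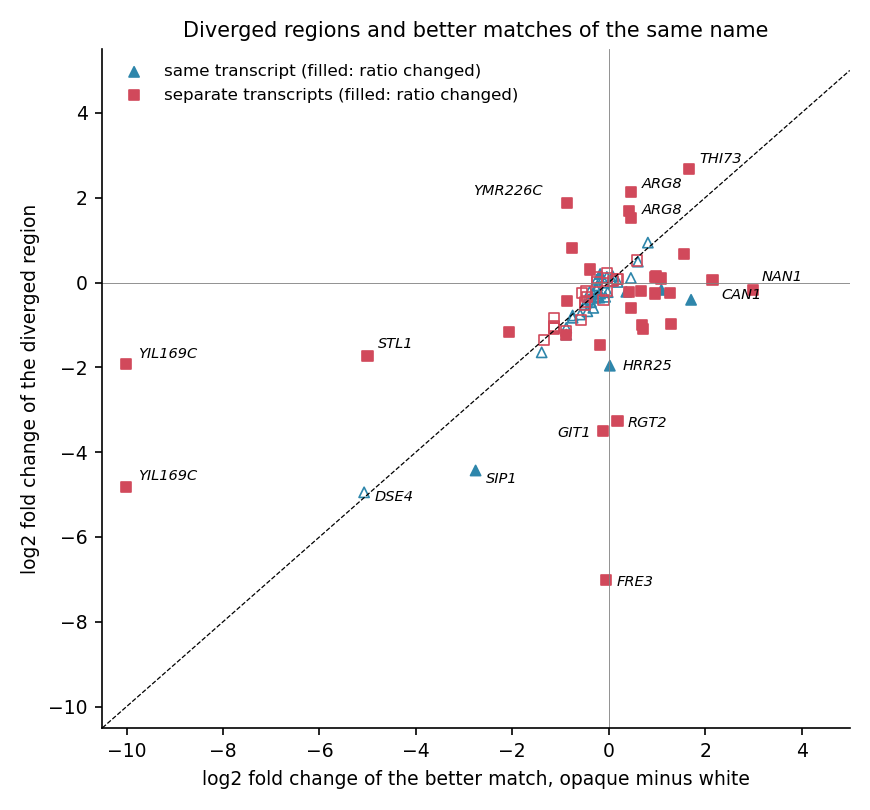
log2 fold change (opaque minus white) of diverged regions against that of a better match of the same name, for 93 pairs, with triangles for pairs on 1 transcript and squares for separate transcripts. Filled symbols mark a changed ratio (37 pairs), the dashed line marks equal change, and FRE3, RGT2, GIT1 and HRR25 lie far below it while their better matches are near 0.

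The gene lists used next were written from general knowledge of yeast. Of the 181 diverged regions, 86 were in at least 1 of 16 lists, and no list was tested as a set. The 4 regions in cell wall and surface proteins were all higher in white cells: DSE4, both YIL169C regions, and HKR1, named for a mucin that signals osmotic stress (log2 fold change -0.68). Among comparison regions of that list 21 of 30 were higher in white cells.

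Of 13 regions in the membrane transporter list, 7 were higher in white, 1 was higher in opaque cells and 5 were not called, against 29, 39 and 18 of 86 comparison regions. Beside FRE3, GIT1 and STL1, the list held TNA1, named for the nicotinic acid permease, with 2 diverged regions. That on scaffold 4 at 56477 to 57982 was at 60.0, 62.1 and 68.6 CPM in white and at 248, 186 and 180.3 CPM in opaque libraries. The opaque libraries were all higher, with a log2 fold change of 1.69 ± 0.12 (SE, edgeR adjusted p = 1.11e-06). That on scaffold 8 was not called, at -0.23. CAN1, named for the arginine permease and chosen for display after its values were seen, also had a diverged region that was not called (0.06), while its better match had a log2 fold change of 2.15.

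Among 14 regions in the transcription regulator list, 6 were higher in white cells, 1 was higher in opaque cells and 7 were not called. The share higher in white cells, 42.9%, was near that of the comparison regions of the list, 41.6% (37 of 89), of which 29 were higher in opaque cells. The diverged NDT80 region, named for the activator of middle meiotic genes, was at 14.5, 17.4 and 15.9 CPM in white and at 7.79, 9.19 and 5.28 CPM in opaque libraries. It did not overlap between groups and changed by -1.10 ± 0.17 (SE, edgeR adjusted p = 1.52e-04). LYS14 changed by -1.004 and AZF1, a zinc finger regulator, by -0.51. PDR8, a regulator of drug resistance genes, was the 1 that rose in opaque cells, from 160, 157 and 184 CPM in white to 298, 333 and 376 CPM in opaque libraries. Its log2 fold change was 1.01 ± 0.09 (SE, edgeR adjusted p = 1.87e-06), and it is the neighbour of BOP2, which fell.

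The list of kinetochore, spindle and cohesin proteins held 12 regions, 8 higher in white and 2 higher in opaque cells, against 12 and 11 of 33 comparison regions. Of the 8, 5 were fragments of NUM1, the cortical anchor of dynein and mitochondria, which overlap each other on 1 transcript of scaffold 8 between 83083 and 87636. Their log2 fold changes ran from -1.09 to -0.85, and a better matched stretch of the same transcript (41.89% identity) changed by -0.74. The longest fragment (4220 bp, 24.98% identity) was at 72.7, 69.3 and 74.5 CPM in white and at 37.6, 38.5 and 30.5 CPM in opaque libraries. The fragments therefore count as 1 transcript that was lower in opaque cells. The 2 regions higher in opaque cells, SLK19 and IML3, had log2 fold changes of 0.19 and 0.21, and neither was called with upper-quartile or total-count scaling.

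Silencing and chromatin regions were all called, with 4 of 5 higher in white cells. HST1, named for a histone deacetylase of the sirtuin family, changed by -0.46, SNT1, a subunit of a deacetylase complex, by -0.47, and ESC1, a nuclear edge protein in silencing, by -0.49. SIR4, the silencing protein, changed by -0.33. HIF1, named for a partner of the histone acetyltransferase that acts on new histones, went the other way. It was at 35.4, 32.3 and 31.9 CPM in white and at 80.7, 79.6 and 82.0 CPM in opaque libraries, a log2 fold change of 1.28 ± 0.07 (SE, edgeR adjusted p = 1.45e-08) with no overlap. Among comparison regions of this list 30 of 85 were higher in opaque and 29 in white cells.

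Polarity and cell cycle regions were also all called, 4 of 5 in the direction of white cells. Of 66 comparison regions of the list, 42 were called, 20 of them higher in white and 22 in opaque cells. FAR1, which arrests the cell cycle on pheromone, was at 42.1, 46.3 and 39.9 CPM in white and at 20.2, 19.5 and 19.6 CPM in opaque libraries. Its log2 fold change was -1.11 ± 0.08 (SE, edgeR adjusted p = 2.88e-07), and it was the single diverged region in the mating list, where 16 of 27 comparison regions were higher in white cells. BUD9 and BUD4, landmarks of the bud site, changed by -0.57 and -0.26, while SKG6 rose by 0.94 in opaque cells. In signalling, 4 of 5 regions were higher in white cells, including SIP1, RGT2, TPD3 and SAK1 (-0.32), a kinase that activates Snf1, against 31 of 67 comparison regions of the list, with 17 higher in opaque cells.

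Autophagy and membrane traffic regions went both ways, with 3 of 5 higher in white and 1 in opaque cells, against 67 and 18 of 120 comparison regions. GYP8, a regulator of Rab GTPases, was at 42.8, 44.2 and 37.2 CPM in white and at 13.0, 13.3 and 14.4 CPM in opaque libraries, a log2 fold change of -1.61 ± 0.09 (SE, edgeR adjusted p = 3.75e-08). ATG39 and ATG40 are both receptors that bring endoplasmic reticulum to autophagy, at the nuclear envelope and elsewhere. ATG39 was at 21.3, 18.7 and 23.0 CPM in white and at 8.52, 10.2 and 10.99 CPM in opaque libraries (log2 fold change -1.10, edgeR adjusted p = 1.04e-05). ATG40 was at 5.999, 5.73 and 8.56 CPM in white and at 9.44, 12.8 and 14.9 CPM in opaque libraries (log2 fold change 0.85, edgeR adjusted p = 3.52e-03). The libraries did not overlap in either, and the receptors moved in opposite directions. ATG34, a receptor for import of a vacuolar enzyme, changed by -0.79.

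Of 7 meiosis regions, 2 were higher in white cells (NDT80 and ZIP2, at -1.10 and -0.58), 1 was higher in opaque cells and 4 were not called, against 18, 17 and 11 of 46 comparison regions. The diverged region higher in opaque cells was RED1, a protein of the meiotic chromosome axis, at 15.8, 21.0 and 18.4 CPM in white and 32.9, 29.9 and 32.1 CPM in opaque libraries (log2 fold change 0.78, edgeR adjusted p = 5.27e-05). Of 6 mitochondrial regions, GEP5 and SLS1 were higher in opaque cells (0.79 and 0.25), PET130 was higher in white cells (-0.19) and 3 were not called. Among comparison regions of that list 45 of 85 were higher in white and 19 in opaque cells. SLS1 was not called with upper-quartile or total-count scaling, and PET130 was not called (-0.16 and -0.17) without white replicate 2 or opaque replicate 2.

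In the nuclear pore list both overlapping NUP1 regions were higher in opaque cells (0.32 and 0.36) and GLE1, an mRNA export factor, was not called (0.13), where 25 of 41 comparison regions were higher in opaque cells. With total-count scaling, 1 of the NUP1 regions was no longer called. In RNA processing, PUF3, an mRNA binding protein, and DCP2, the decapping enzyme, changed by -0.75 and -0.36, while PRP21, a splicing factor, was not called (0.03), where 17 of 93 comparison regions were higher in white and 42 in opaque cells. Of 4 DNA repair and telomere regions 1 was called, against 65 of 88 comparison regions, with STN1, a telomere capping protein, at -0.21, and MMS22 and both MMS1 regions not called. SRM1, the exchange factor of the Ran GTPase, gave 4 overlapping diverged fragments of 1 transcript on scaffold 3 that were not called, with log2 fold changes of 0.08 to 0.12. The 95 diverged regions in none of the lists had 49 higher in white and 16 higher in opaque cells.

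Values next to the 35 percent limit went both ways. The regions just inside it were SPC42 (34.9 percent, a spindle pole body protein), RED1 (34.87) and GEP5 (34.84), with log2 fold changes of -0.20, 0.78 and 0.79. SPC42 missed the threshold with DESeq2 and without white replicate 1, white replicate 3 or opaque replicate 3 (-0.20 to -0.19). Those just outside were SLX4 (35.12), NDJ1 (35.23) and NUP57 (35.25), with -0.10, -0.66 and 0.27.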

How the data were processed

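RNA libraries of 3 white and 3 opaque cultures were analysed. According to the methods of the study, reads from a stranded mRNA kit were aligned with STAR to the CLIB830T assembly, and transcripts were assembled and merged with cufflinks and named by BLAST. The counter, its use of strand and read pairs, and versions are not given in the sources used here. The deposited values are raw counts per region, and each library was deposited unpooled. The fraction of each region covered and the covered bases, both deposited by the authors, were used only to check coverage. The percent identity is that of the authors' BLAST annotation. The 4482 annotation rows held 4464 distinct regions.

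edgeR 4.0.16 (R 4.3.3) was used with TMM normalization, filterByExpr and a robust quasi-likelihood fit over 4404 regions and 1 factor, the cell type. Calls were made at a Benjamini-Hochberg adjusted p under 0.05. SE is the size of the log2 fold change divided by the square root of F. Ratios of pairs were tested with limma 3.58.1 on log2 CPM (prior count 2), adjusted over 93 pairs. The better match had the same name, the highest identity, at least 300 bp and no overlap. An exact permutation test of 3 against 3 libraries cannot give a p under 0.1. The steps were tested on simulated data. Library pairs were checked and no duplicate was found.

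Regions were named by rule: changes of at least 4-fold with libraries apart and a mean of 5 CPM or more in 1 cell type, the 5 most abundant per kb, up to 4 per list of 3 or more, the 3 on each side of the identity limit, the 5 pairs of smallest p, and runs of 3 or more neighbours. The regions and lists were chosen with earlier results of these data known. Alternatives were other scalings, DESeq2 1.42.0, other filters, a replicate block, other limits of identity, length and position, and leaving out each library. DNA samples were not analysed here.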

Additional observations from a re-analysis of the deposited data

How the results depend on the processing

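Diverged regions past 4-fold in the direction of opaque cells numbered 3 with total-count scaling, in place of 5. Upper-quartile and total-count scaling shifted all regions by a median of -0.12 and -0.16 (log2), and the diverged regions then had 24 and 22 higher in opaque and 106 and 108 higher in white cells. Their median stayed 0.23 to 0.25 below that of all regions, except 0.21 below without opaque replicate 3. The counts called when 1 library was left out ran from 113 to 120. DESeq2 gave 29 higher in opaque and 90 in white cells. Of the 122 called regions, 103 were called in the same direction under all 13 settings of the test, and none in opposite directions under 2 settings. Culture numbers did not pair the libraries, since deviations of same-numbered cultures correlated at -0.04, -0.04 and 0.18 (description over regions). With a replicate block 28 regions were higher in opaque and 94 in white cells, as without it, and 36 in place of 37 ratios changed. Of 877 values of 74 named regions and ratios under alternatives, 12 lost and 17 gained their call and 0 turned their direction. With other limits of identity, length or position, without overlapping regions or shared names, or with 1 region per transcript, 49.7% to 55.9% of the diverged regions were higher in white and 12.7% to 20.6% in opaque cells. The lowest count of a diverged region in a library was 9 (FRE3, opaque replicate 2).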
